A study of Gossypium bickii with 18 samples.

Results

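The comparison described here sets cotyledons of Gossypium bickii at 12 h after imbibition, under light, against cotyledons at 0 h. Its members are all gene IDs at 1 FPKM or more (fragment counts corrected for gene length and library size) in at least 3 of the 6 libraries, which are 21288 of the 43790 IDs in the time-course table. The study followed bulk RNA of G. bickii cotyledons from 0 h to 48 h after imbibition, and compared light with dark at 24 h, with 3 libraries in each group. The 0 h group carries no light or dark label, and the series has no dark group at 12 h, so water uptake, time and light cannot be told apart in this comparison. The sample titles mark the replicates as biological. No cultivar, seed lot or growth condition is given in the labels, nor what was independent between replicates (plants, seeds or cultures), so the p-values measure the spread between these libraries. In bulk tissue, fewer cells of a type and less RNA per cell cannot be told apart.

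A dry cotton seed holds most of its mass in its cotyledons, which store protein and oil. Messenger RNAs made late in seed development are kept in the dry seed. When the seed takes up water, many stored transcripts are degraded while new ones are made for respiration, protein synthesis, reserve use and growth. G. bickii is known for seeds without pigment glands, which form in the cotyledons during germination. The files pair no gene ID with a name, so no pathway, gland or photosynthesis gene could be looked up, and the tissue label could not be checked against marker genes. Genes are given by ID.

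At 0 h a small set of genes dominated the RNA, and by 12 h the RNA was spread over more genes. In replicates 1, 2 and 3 at 0 h, 296, 452 and 389 genes held 50% of summed FPKM, against 894, 1208 and 942 genes at 12 h. The groups did not overlap, and the ratio of the means was 2.68 (379 ± 78.5 against 1015 ± 169, SD, n = 3; exact permutation p = 0.1, two-sided, the smallest that 3 against 3 libraries allow, adjusted 0.113 over 9 tests). The 10 highest genes took 18.1% ± 0.556 of summed FPKM at 0 h and 8.17% ± 0.884 at 12 h (SD, n = 3; exact permutation p = 0.1). The number of members at 100 FPKM or more differed by less than the spread between libraries, at 856 ± 19.0 and 851 ± 56.0 (SD, n = 3; exact permutation p = 0.9). Members listed at 0 numbered 1479, 994 and 1682 in the 0 h libraries and 191, 189 and 182 at 12 h. The median member stood at 5.06 ± 0.455 FPKM at 0 h and at 7.76 ± 0.426 FPKM at 12 h (SD, n = 3; exact permutation p = 0.1). Members were admitted by these same libraries, 3315 through the 12 h libraries alone and 554 through the 0 h libraries alone. More zeros and a lower median at 0 h are thus in part built in. The median also rests on the scaling. On the log2(FPKM + 1) scale, members had a median difference of 0.48 as deposited and 0.66 in TPM. Quantile normalization gave 0.0127, and median-of-ratios scaling 0.0463.

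**Figure D1:**
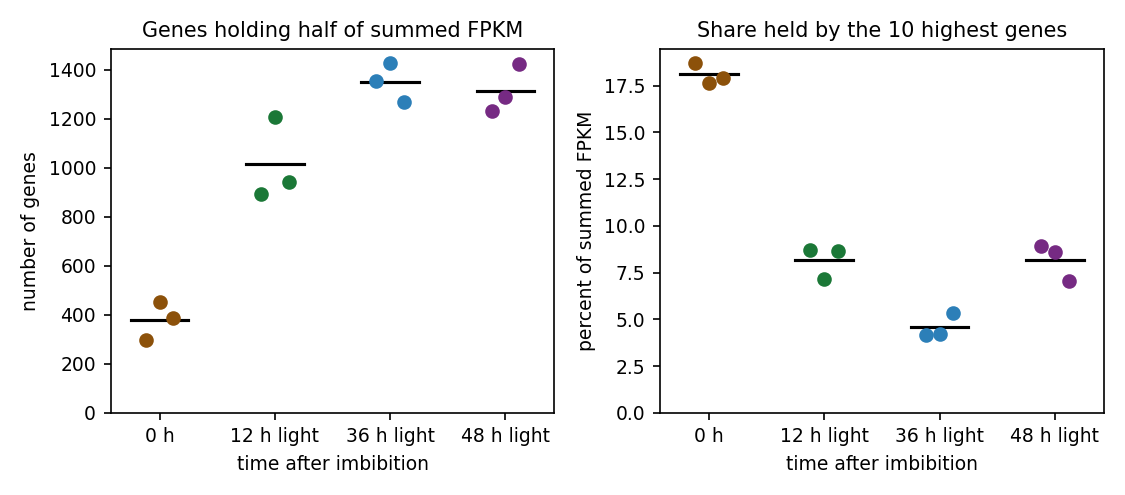
Each point is 1 library and each bar the mean of 3, at 0, 12, 36 and 48 h; the left panel gives the number of genes that together hold 50% of summed FPKM and the right panel the percent of summed FPKM in the 10 highest genes. The 0 h libraries lie at 296 to 452 genes and the 12 h libraries at 894 to 1208.

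The library of 0 h replicate 2 stood apart from the other 0 h libraries, in the direction of 12 h. In it, 195 members exceeded both other 0 h libraries by 2 log2 units or more, against 17 and 8 in replicates 1 and 3 and at most 23 in any 12 h library. Their median was 10.9 FPKM in replicate 2, 0.375 FPKM in the mean of the other 0 h libraries and 70.6 FPKM at 12 h. With replicate 2 left out, 192 of the 195 rose by 12 h. The 195 were picked for low values in the other 0 h libraries, so that count follows in part from the choice. Of all members under 1 FPKM in the 0 h mean, 85.2% rose. In replicate 2 itself, 26 of the 195 stood above their 12 h mean. Among all 7742 members that rose in the fit without replicate 2, it was the highest 0 h library for 57.8%, whereas replicate 1 was the highest for 16.3% and replicate 3 for 24.5% of the members that rose without that library. For falling members this library did not lean that way, being the lowest 0 h library for 32.9% of those that fell without it. Falling members leaned in other libraries: 0 h replicate 1 was the lowest 0 h library for 43.1% of the members that fell without it, and 12 h replicate 2 the highest 12 h library for 52.6% of those that fell without it (28.9% and 26.4% for 12 h replicates 1 and 3). What set 0 h replicate 2 apart was not tested, and values without it are given below for part of the results.

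Of the 21288 members, 10554 (49.6%) changed by 12 h, with 7543 higher (35.4%) and 3011 lower (14.1%). A change was called at an adjusted p under 0.05 (limma, Benjamini-Hochberg over the 25760 genes tested) and an absolute difference of at least 1 on the log2(FPKM + 1) scale. Over all genes tested, 42.0% were called, 30.3% higher and 11.7% lower. Genes tested that were not members lay under the membership limit at 0 h and 12 h, so the higher share among members follows in part from that rule. Without 0 h replicate 2, 7742 members were higher and 2950 lower. Of the calls, 10490 had 0 h and 12 h libraries that did not overlap, where among all members 52.2% had every 12 h library above every 0 h library and 25.2% had every one below. In the fits without each of the 6 libraries in turn, 9445 calls (89.5%) held in the same direction every time.

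The split between rises and falls depended on the scaling. The median difference over all genes tested was 0.40 log2 units with FPKM as deposited and 0.60 in TPM. Scaling by median ratios brought it to 0.11, and quantile normalization to 0.04. Measured from that median of 0.40, 5424 members rose and 4446 fell, so that 55.0% of calls were higher, against 71.5% as deposited. Over these scalings the number of rises ran from 5032 to 8774 and the number of falls from 2818 to 4754. Across the deposited scale, TPM, median-of-ratios, quantile normalization and centring, 4528 of the rises (60.03%) and 2761 of the falls (91.7%) were called every time, and 0 members were called in opposite directions. Median-of-ratios scaling and centring shift the differences downward, which by construction costs rises. TPM shifts them upward, and kept 7542 of the rises and 2765 of the falls. Quantile normalization lowered the median difference but not every difference, and kept 5020 of the rises and 3000 of the falls. It raised the difference of each gene named below, from 7.31 to 7.99 for Gbi09G2338. Counts of rises and falls given below are on the deposited scale unless another is named.

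**Figure D2:**
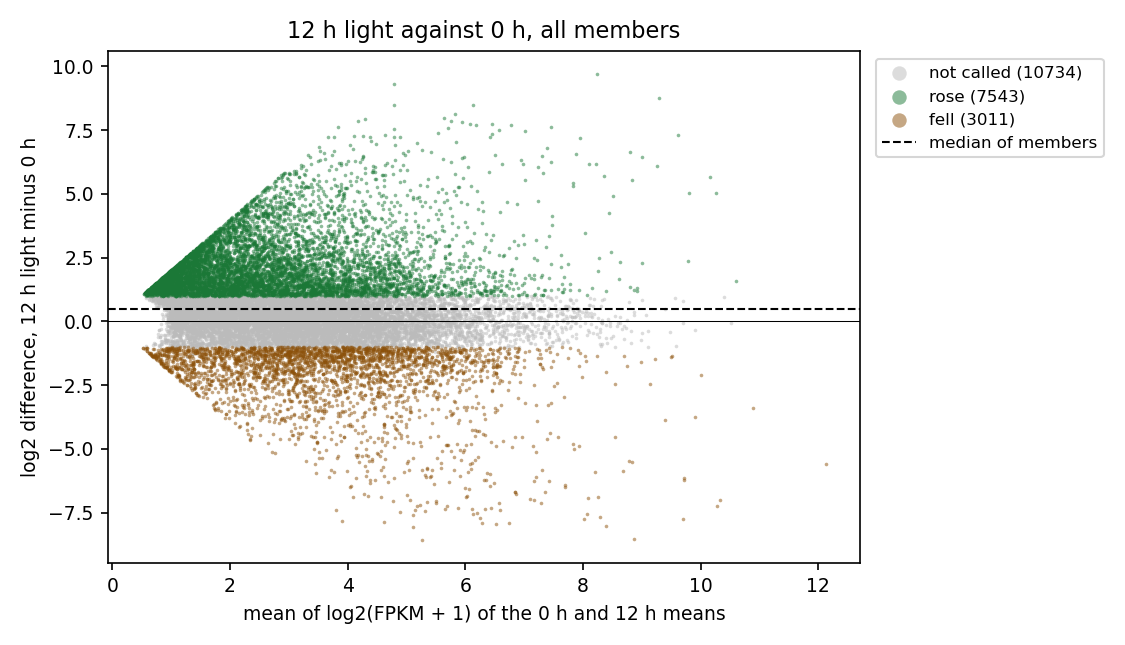
Each point is 1 member, with its level over both groups on the x axis (mean of the log2(FPKM + 1) of the group means) and the log2 difference, 12 h minus 0 h, on the y axis; green points rose, brown points fell, grey points were not called, and the dashed line is the median of members (0.48). The 7543 green points include many genes of low level, while falls of more than 5 log2 units reach the highest levels.

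Part of the count of rises follows from the membership rule. There were 3315 members at 1 FPKM or more in all 3 libraries at 12 h and in none at 0 h, of which 2986 rose, and 554 with the reverse pattern, of which 460 fell. Such genes had to differ to be members. Of the 14751 members at 1 FPKM or more in all 6 libraries, 3346 rose (22.7%), 2249 fell (15.2%) and 9156 were not called. Which direction was the more common turned with the scaling, from 4165 rises and 2007 falls in TPM to 2014 and 3814 with median-of-ratios scaling, 1947 and 3133 with quantile normalization and 2132 and 3485 with centring. The calls shared by all 5 scalings were 1671 rises and 2003 falls. Without 0 h replicate 2, on the deposited scale, the counts were 3495 and 2207. Just inside the membership limit, 328 members had the value that decides membership, the lowest of their 3 highest, between 1 and 1.1 FPKM, and 374 IDs just outside had it between 0.9 and 1 FPKM.

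Most changes were moderate on the log2(FPKM + 1) scale. This scale understates changes of low genes, and rising members were lower at 0 h than falling ones. Of the rises, 4309 (57.1%) lay between 1 and 2 log2 units and 250 (3.31%) at 5 or more. Of the falls, 1857 (61.7%) lay between 1 and 2 log2 units and 154 (5.11%) at 5 or more. The median rising member went from 1.18 FPKM to 9.58 FPKM, and the median falling member from 22.7 FPKM to 4.51 FPKM. Among members at 1 FPKM or more in all 6 libraries, the median log2 ratio of group means was 1.85 for rises and -1.81 for falls. For 6140 members (28.8%) the 95% confidence interval of the difference lay wholly between -1 and 1. Another 4594 members were neither called nor bounded in this way.

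The members most abundant at 0 h lost nearly all of their share. The 52 members with a mean of 1000 FPKM or more at 0 h held 30.3% ± 1.53 of summed FPKM there and 1.46% ± 0.1996 at 12 h (SD, n = 3). They were chosen on their 0 h values, so this is a description. By call, 49 of the 52 fell and 0 rose, and 46 fell under all 5 scalings. Their median level went from 1639 FPKM to 27.7 FPKM by 12 h. It was 3.25 FPKM in the 36 h libraries and 0.528 FPKM in the 48 h libraries. The loss thus went on in the later libraries, which played no part in the choice. Without 0 h replicate 2 the class held 56 members, of which 53 fell, and went from 31.7% to 1.47% of summed FPKM.

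The most abundant members at 12 h had a median of 76.8 FPKM at 0 h, above that of members as a whole but far under the level they reached. Of the 33 members at 1000 FPKM or more at 12 h, 18 had stood between 10 and 100 FPKM at 0 h, 11 between 100 and 1000, 3 between 1 and 10, and 1 had been at 1000 or more. These 0 h levels are means that include 0 h replicate 2, and they were not computed without it. For the highest gene at 12 h, that library read 267 FPKM, against 14.0 and 13.8 FPKM in the other 0 h libraries. These 33 held 1.16% ± 0.436 of summed FPKM at 0 h and 14.4% ± 1.31 at 12 h (SD, n = 3). Their share then went down to 5.55% ± 1.65 (36 h) and 2.84% ± 0.529 (48 h). The 20 highest genes at 0 h and the 20 highest at 12 h had 0 IDs in common. All 20 of the 0 h list fell, each to under 10% of its 0 h mean and 10 of them to under 1%, and 19 of the 12 h list rose. These calls of the 20 and the 19 held under all 5 scalings. Of the 100 highest genes at each time, 17 were in both lists.

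Across all members, 11195 (52.6%) kept their level class (under 1, 1 to 10, 10 to 100, 100 to 1000, or 1000 FPKM or more), 7230 moved to a higher class and 2863 to a lower one. Of the 4162 members under 1 FPKM at 0 h, 3431 (82.4%) reached 1 to 10 FPKM and 25 reached 100 to 1000 FPKM, and 19 stayed under 1 FPKM in the mean. Of the 802 at 100 to 1000 FPKM at 0 h, 344 (42.9%) kept that class and 302 (37.7%) dropped to 10 to 100 FPKM. Genes sorted by 0 h level move toward the middle in part through the sorting itself. Sorting by the 36 h libraries, which are outside the comparison, avoids sorting on 0 h values. It does not remove the selection made by the membership rule. Members under 1 FPKM at 36 h had to reach 1 FPKM in libraries of 0 h or 12 h. How often they fell or rose thus follows in part from that rule. Of 16 members at 1000 FPKM or more at 36 h, 14 (87.5%) had risen by 12 h and 0 had fallen, against 35.4% and 14.1% of all members. Of 1200 members under 1 FPKM at 36 h, 644 (53.7%) had fallen and 175 (14.6%) had risen by 12 h. Under all 5 scalings these counts were 14, 0, 642 and 77, and without 0 h replicate 2 they were 14, 0, 630 and 182.

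**Figure D3:**
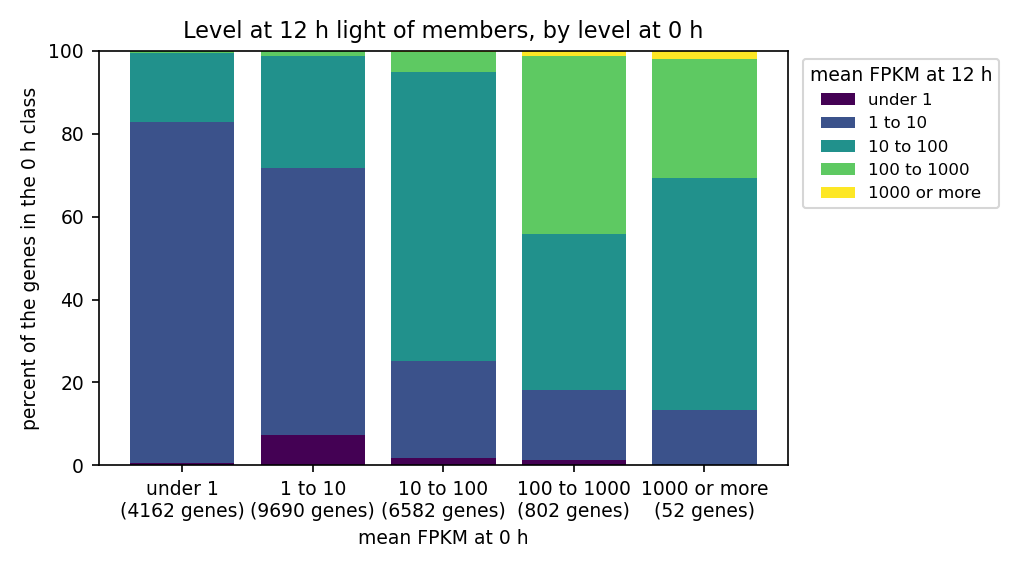
Each bar is 1 class of members by mean FPKM at 0 h (x axis, number of genes in brackets), divided by the class of their mean at 12 h (colours) in percent of the 0 h class (y axis). In the highest 0 h class, of 52 genes, 1 gene stayed at 1000 FPKM or more at 12 h.

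The largest loss of FPKM was that of Gbi10G0039, which led all genes in the 0 h libraries. It stood at 28721, 36663 and 25005 FPKM in the 0 h libraries and at 644, 921 and 413 FPKM at 12 h. The groups lay far apart, and the gene's share of summed FPKM went from 5.01% to 0.124%. It fell by 5.57 on the log2 scale (SE 0.42, limma adjusted p = 2.25e-07), moving from rank 1 to rank 60. At 36 h it averaged 54.1 ± 6.31 FPKM and at 48 h 5.45 ± 3.42 FPKM (SD, n = 3).

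Gbi09G1377, the second highest at 0 h, showed the next largest loss. Its 0 h libraries held 15775, 12293 and 15644 FPKM and its 12 h libraries 148, 114 and 50.8 FPKM. It fell by 7.24 on the log2 scale (SE 0.37, limma adjusted p = 8.97e-09) to rank 818. Both groups were tight compared with the gap between them, and the decline went on to 7.72 ± 2.02 FPKM at 36 h and 1.84 ± 1.12 FPKM at 48 h (SD, n = 3).

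Gbi09G2338 showed the largest gain and became the highest gene at 12 h. Its values were 14.0, 267 and 13.8 FPKM at 0 h and 6894, 5073 and 6817 FPKM at 12 h. The 0 h value of replicate 2 was far above those of the other 0 h libraries, yet far below every 12 h library. The log2 difference was 7.31 (SE 0.84, limma adjusted p = 8.05e-06), and 8.70 without that library. The gene rose from rank 872 to rank 1, and stood lower again at 36 h (1549 ± 474 FPKM) and 48 h (725 ± 61.1 FPKM; SD, n = 3), where it ranked 5 and 42.

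Gbi01G0290 followed the same course. It stood at 55.2, 549 and 49.0 FPKM at 0 h and at 7050, 4191 and 6664 FPKM at 12 h, again with replicate 2 the highest 0 h library. The log2 difference was 5.65 (SE 0.72, limma adjusted p = 1.98e-05), and 6.78 without that library. Its means at 36 h and 48 h were 1157 ± 532 and 414 ± 46.8 FPKM (SD, n = 3). The log2 differences of these 4 genes kept their direction and their call under every alternative run, with adjusted p of at most 0.00234.

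Gbi13G4277 and Gbi11G4396 were the most abundant members whose 95% interval lay between -1 and 1. Gbi13G4277 stood at 1738, 1561 and 1189 FPKM at 0 h and at 1498, 1300 and 1508 FPKM at 12 h, with overlapping groups and a log2 difference of -0.05 (95% interval -0.51 to 0.42). It was the single member at 1000 FPKM or more at both times. Its level at 12 h did not last, since it averaged 297 ± 37.3 FPKM at 36 h and 15.6 ± 2.91 FPKM at 48 h (SD, n = 3). Gbi11G4396 stood at 1019, 976 and 1209 FPKM at 0 h and at 788, 1117 and 695 FPKM at 12 h (log2 difference -0.32, 95% interval -0.93 to 0.29). After median-of-ratios scaling neither interval lay within those bounds, at -1.04 to -0.12 for Gbi13G4277 and -1.39 to -0.32 for Gbi11G4396, and that of Gbi11G4396 also passed -1 after centring (-1.34 to -0.11). It did so as well without 0 h replicate 1 (-1.13 to 0.42), 0 h replicate 2 (-1.10 to 0.33) or 12 h replicate 2 (-1.16 to 0.11), with the replicate block (-1.02 to 0.37) and with no filter (-2.30 to 1.65). It remained at 962 ± 78.2 FPKM at 36 h and 567 ± 156 FPKM at 48 h (SD, n = 3).

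**Figure D4:**
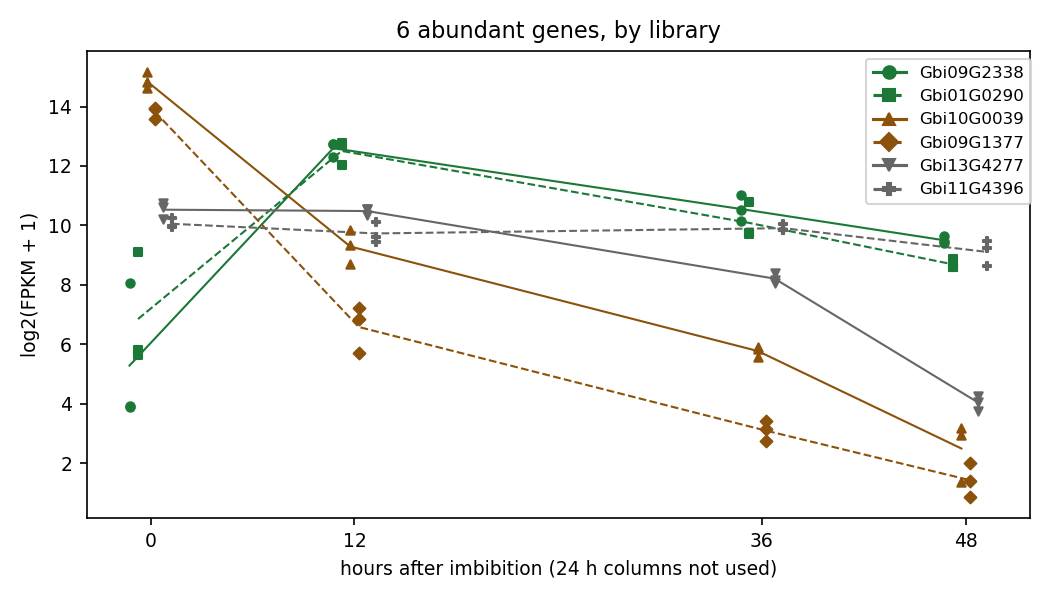
Points are single libraries and lines join group means of log2(FPKM + 1) (y axis) over hours after imbibition (x axis), with points shifted sideways for legibility; green genes rose, brown genes fell and grey genes had a 95% interval between -1 and 1. The green genes are highest at 12 h, and in both of them 1 of the 3 values at 0 h, that of replicate 2, lies above the others.

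Some genes went from near 0 to 1 FPKM or more. There were 982 IDs under 0.1 FPKM in all 0 h libraries and at 1 FPKM or more in all 12 h libraries, and 95 with the reverse pattern. Of the 982, 641 were listed at 0 in every 0 h library, which may be failed estimates, so no fold is given. Most came on at low levels, with a median of 2.86 FPKM at 12 h, 120 at 10 FPKM or more and 2 at 100 FPKM or more. Together they made up 1.09% ± 0.0281 of summed FPKM at 12 h (SD, n = 3). The count rested on 0 h replicate 2, being 1639 without that library. At 36 h, 802 (81.7%) were at 1 FPKM or more in all 3 libraries, and at 48 h 693 (70.6%) were. At 48 h, 63 were again under 0.1 FPKM in all libraries. Of the 95 IDs that went the other way, 67 (70.5%) were under 0.1 FPKM in all 36 h libraries and 72 (75.8%) in all 48 h libraries, and 5 were at 1 FPKM or more in all 48 h libraries.

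After 12 h the members that had fallen stayed at a small share of the RNA, while those that had risen lost share without a lower median level. Members that fell went from 57.6% ± 2.21 of summed FPKM to 6.58% ± 0.570 by 12 h, and the 36 h and 48 h libraries gave 7.52% ± 0.187 and 9.71% ± 0.217 (SD, n = 3). Members that rose held 6.66% ± 1.26 (0 h), 52.3% ± 2.00 (12 h), 45.3% ± 2.42 (36 h) and 35.6% ± 1.16 (48 h). The median rising member stood at 9.58, 10.7 and 10.03 FPKM in the 12, 36 and 48 h libraries. The share of all members together went from 99.3% to 99.4% in the 12 h libraries to 80.4% to 85.5% in the 48 h libraries, and the 33 most abundant genes of 12 h, described above, went down over the same times. The 10734 members not called stayed between 35.4% and 43.7%. Shares are free of any scaling of whole libraries, and the first differences follow from how the classes were chosen. With classes made without 0 h replicate 2, the shares at 36 h and 48 h were 7.603% and 9.53% for falling members and 45.6% and 35.9% for rising members. Of the falling members, 363 (12.1%) had a 48 h mean at or above their 0 h mean, and 921 (30.6%) had one under 10% of it. Of the rising members, 3366 (44.6%) stood higher at 48 h than at 12 h in the mean, and 605 (8.02%) were back at or below their 0 h mean.

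**Figure D5:**
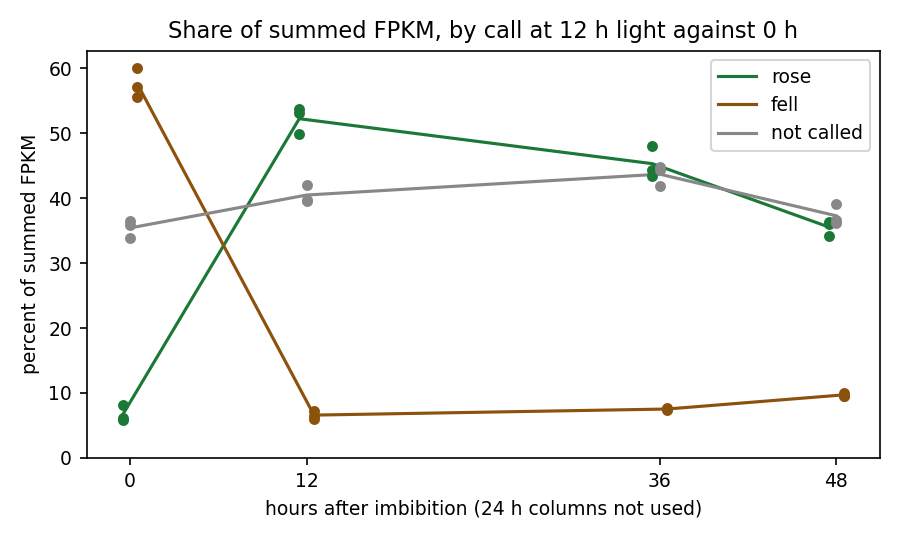
Points are the percent of summed FPKM (y axis) in each library that members in 3 classes held, over hours after imbibition (x axis), and lines join the group means; the classes are the calls of 12 h against 0 h. Falling members stay between 6.58% and 9.71% from 12 h on, while rising members go from 52.3% at 12 h to 35.6% at 48 h.

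The step from 36 h to 48 h shares no library with that from 0 h to 12 h. In it, 27.3% of all genes tested were called by the same rule, 15.0% as rises and 12.3% as falls. The split turned after quantile normalization, with 3519 rises and 3593 falls against 3873 and 3166 as deposited. Of the 7543 members that had risen by 12 h, 1385 (18.4%) fell in this later step and 707 (9.37%) rose. Those 1385 were 43.7% of all later falls, and the 707 were 18.3% of all later rises, where the 7543 were among 25760 genes tested. Genes tested that were not members passed the filter only with the help of the 36 h or 48 h libraries. Shares over all genes tested, and shares of all later rises and falls, thus follow in part from that filter. Of the 3011 members that had fallen by 12 h, 369 (12.3%) rose later and 291 (9.66%) fell, which is 9.53% of later rises and 9.19% of later falls. Members not called at 12 h rose in 9.39% and fell in 11.9% of cases. Members that had risen by 12 h thus rose later about as often as uncalled members, and fell later more often. Uncalled members held 26.0% of later rises, and the remaining later rises were of genes under the membership limit at 0 h and 12 h. Without 0 h replicate 2 in the calls, later falls made up 18.1% of the early rises and later rises 12.2% of the early falls. With the later step quantile normalized, these shares were 20.6% and 11.7%.

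Light at 24 h, the other comparison that shares no library with this one, called few of the members. In the separate table of light and dark libraries 3.15% of genes tested were called, 2.55% higher and 0.607% lower in light. Of the members that had risen by 12 h, 6881 were tested there, and 226 (3.28%) were higher and 76 (1.104%) lower in light. Of the members that had fallen, 2299 were tested, and 85 (3.70%) were higher and 12 (0.522%) lower. Of those not called, 1.75% were higher and 0.229% lower. Rising members, 6881 of the 23059 genes tested there, thus held 38.5% of all genes higher in light and 54.3% of all lower in light. The median log2 difference of light over dark was 0.10 for rising, 0.17 for falling and 0.17 for uncalled members, beside 0.13 over all genes tested. After quantile normalization of that table these medians were -0.039, -0.0015 and -0.0032, beside -0.037 over all genes tested, and 401 genes were higher and 225 lower in light, against 587 and 140 on the deposited scale. Of the rising members 2.64% were then higher and 1.41% lower in light, of the falling members 2.04% and 1.0004%, and of those not called 1.07% and 0.457%. Rising members then held 182 of the 401 genes higher and 97 of the 225 lower in light, so the larger share among lower genes rested on the scaling. The light calls rest on each library: leaving out dark replicate 1, 2 or 3 turned the 727 genes into 348, 228 or 2166, and leaving out light replicate 1, 2 or 3 turned them into 347, 374 or 271. These libraries were taken 12 h later than those compared here, and the comparison does not separate light from imbibition at 12 h.

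The genes named above were not called by light. In the light-dark table Gbi09G2338 stood at 6605, 5496 and 4651 FPKM in the dark and at 3135, 4670 and 3880 FPKM in light (log2 difference -0.52, SE 0.21, limma adjusted p = 0.15). Gbi01G0290 stood at 4783, 4594 and 3786 FPKM in the dark and at 3422, 3728 and 3490 FPKM in light (log2 difference -0.30, SE 0.16, limma adjusted p = 0.238). For Gbi01G0290 every dark library lay above every light library, while for Gbi09G2338 the groups overlapped. Both genes stood above 3000 FPKM in every light and every dark library, all taken at 24 h. An effect of light on them at 12 h was not tested. Gbi10G0039 showed the largest light difference of the named genes, at 122, 196 and 242 FPKM in the dark and 375, 287 and 260 FPKM in light, with groups that did not overlap (log2 difference 0.75, SE 0.26, limma adjusted p = 0.11). The share of all genes whose light and dark groups did not overlap was not counted, so such a gap is description only. The log2 differences of Gbi09G1377, Gbi13G4277 and Gbi11G4396 lay between -0.19 and -0.06, with limma adjusted p of 0.432 or more.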

How the data were processed

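Bulk RNA of cotyledons was sequenced as paired-end reads from NEBNext Ultra libraries, per the labels' protocols. The submitters' processing notes name Trimmomatic 0.36, HISAT2 2.0.4 and HTSeq 0.6.0 without settings. Build, annotation and strandedness are not given in the sources. Values are FPKM as deposited by the authors in 2 tables, compared only within a table. The 3 columns for 24 h in the time-course table were not used, because their names do not tell light from dark. Low values there fell on no steps of whole fragments (at most 0.754% of ratios between paired libraries in 1 bin, against 14.7% in the light-dark table), so depth is unknown and no counting interval is given. How reads shared by near-identical or overlapping genes were counted is unknown.

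Log2(FPKM + 1) of 0, 12, 36 and 48 h was fitted with limma 3.58.1 in R 4.3.3, with group means and a mean-variance trend, over genes at 1 FPKM or more in at least 3 of 12 libraries. The 6 light and dark libraries had a fit of their own. Tests were two-sided, and the steps were tested on simulated data. Differences on this scale understate changes of low genes. Genes named are the 2 per direction with the largest difference in mean FPKM among called members whose groups do not overlap, the highest member of each group, and the 2 most abundant members whose 95% interval lies between -1 and 1. Members and rules were chosen with earlier results of these data known. Gene lists could not be matched, since no names were given. Alternatives were pseudocount, filter, scaling, fold minimum, samples fitted, replicate block and leaving out each library.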

Additional observations from a re-analysis of the deposited data

How the results depend on the processing

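Centring on the median, counts per scaling for members in all 6 libraries, quantile normalization within classes, and classes made without 0 h replicate 2 were chosen after seeing the data. The count of members changed stayed within 1.5 times of 10554 under every alternative run except a minimum of 2 log2 units (4388). Rises made up 71.5% of the calls, and 66.0% with a filter at 5 FPKM, 75.7% in TPM, 55.1% after median-of-ratios scaling, 54.4% after quantile normalization, 55.0% after centring, 68.2% with no fold minimum, 73.7% with a minimum of 2 log2 units and 70.3% to 72.4% without each library. The median difference of members, 0.48, was 0.00 with no filter, where all 43790 IDs count, 0.58 with 0.1 FPKM added in place of 1, 0.35 with a filter at 5 FPKM, 0.66 in TPM, 0.0463 after median-of-ratios scaling, 0.0127 after quantile normalization and 0.0799 after centring. The ratio of genes holding 50% of summed FPKM, 2.68, was 1.75 at 80% of summed FPKM and 2.41 to 2.96 without each library. IDs off at 0 h and on at 12 h numbered 2201 with off set under 0.5 FPKM, 199 with on set at 5 FPKM and 1052 to 1639 without each library. The reverse numbered 293, 13 and 112 to 134. Light against dark gave 228 to 2166 genes without each library, and 48 h against 36 h 6544 to 7657. Gbi13G4277 changed sign to 0.11 in TPM, 0.46 after quantile normalization, 0.071 without 0 h replicate 1 and 0.024 without 12 h replicate 2 (-0.20 to 0.071 without each library), and Gbi11G4396 to 0.11 after quantile normalization. Their differences were -0.58 and -0.86 after median-of-ratios scaling and -0.45 and -0.73 after centring. Neither was called in any of these. Beyond what each alternative's construction shows, the cause was not tested.

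Replicate numbers did not pair the libraries (correlations of deviations 0.11, -0.17 and -0.24 for numbers 1, 2 and 3 across genes). With the replicate block the counts were 10555, 7019 for 48 h against 36 h and 701 for light against dark.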

Other observations

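Changes at 12 h made up similar shares of the 13 numbered ID groups. Among the 13 groups with IDs starting Gbi01G to Gbi13G, the share of members that rose ran from 33.4% (Gbi06G) to 37.2% (Gbi10G), and the share that fell from 12.4% (Gbi01G) to 15.4% (Gbi13G). Of the 382 members with other IDs, 36.9% rose and 11.5% fell, with a median log2 difference of 0.64 beside 0.48 over all members.

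Members with consecutive ID numbers more often had the same call. In 12216 such pairs, 34.5% of the members with the higher number rose, and 42.9% did where the member before them rose. For falls the shares were 15.2% and 24.0%. There were 1805 pairs in which both rose, 434 in which both fell and 935 with opposite calls. The longest run of consecutive IDs that all rose had 9 members, and the longest that all fell had 6. Nothing in the files tells whether such IDs lie next to each other in the genome, are copies of each other or share reads, and this was not tested.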
